A study of Homo sapiens with 4 samples.

Results

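The 9 genes described here are tumour suppressor genes that carcinomas often silence by methylation of their promoters: CDKN2A, CDKN2B, RASSF1, DAPK1, MGMT, GSTP1, RARB, RUNX3 and PCDH17. They were taken by gene symbol from 57879 genes, and each was found once. RNAseq was performed on T24 cells, an established human bladder carcinoma line grown in RPMI with fetal calf serum. Control cells were stably transduced with an empty lentiviral vector, and TET1-CD cells with the same vector carrying the FLAG-tagged catalytic domain of TET1, each selected with puromycin. The labels give the groups as control and TET1-CD genotypes, and the source label of the libraries also carries the word induced, whose meaning is not stated. Each group had 2 libraries, and the labels do not say whether these came from separate cultures, so p-values measure the spread between these libraries, which may be technical. No DNA methylation was measured in the files, which hold RNA levels only.

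Cytosines followed by guanine (CpG sites) cluster at many gene starts, where methylation of the cluster accompanies silencing in tumours. TET1 is a dioxygenase that oxidises the methyl group of such cytosines, and its catalytic domain does so without the rest of the protein. The 9 genes act in different routes: CDKN2A and CDKN2B restrain the cell cycle, RASSF1 and DAPK1 act in growth and death signalling, MGMT and GSTP1 repair or prevent chemical damage, RARB and RUNX3 are transcription factors, and PCDH17 is a cell adhesion protein.

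The starts differed in CpG content. In windows of 300 bases around the annotated 5′ end (250 before and 50 from it on), the median of 34882 start sites of protein-coding transcripts was 11 CpG sites, and 96.7% of the windows held at least 1. The windows held 44 sites at the main start of MGMT, a number reached by 4.15% of all windows, 38 at the P2 start of RUNX3, 36 at GSTP1 and 25 at CDKN2B. CDKN2A held 32 at the ARF start and 26 at the INK4A start, and RASSF1 held 33 at the RASSF1C start and 29 at the RASSF1A start. DAPK1 held 22 at the start with most of its few counts. PCDH17 held 11, and the start of the RAR-beta 2 form of RARB held 7, below the median. The other 7 windows of the 9 genes held 2 to 37 sites. There were 2 at the downstream start of RARB and 3 at an internal start of GSTP1. The exon 2 start of CDKN2A and a further start of DAPK1 held 5 each. The 37 were at a RARB start that lies outside the span the files give the gene and had 0 counts. Only starts with an annotated coding transcript had a window, 18 of the 35 starts of these genes.

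**Figure D1:**
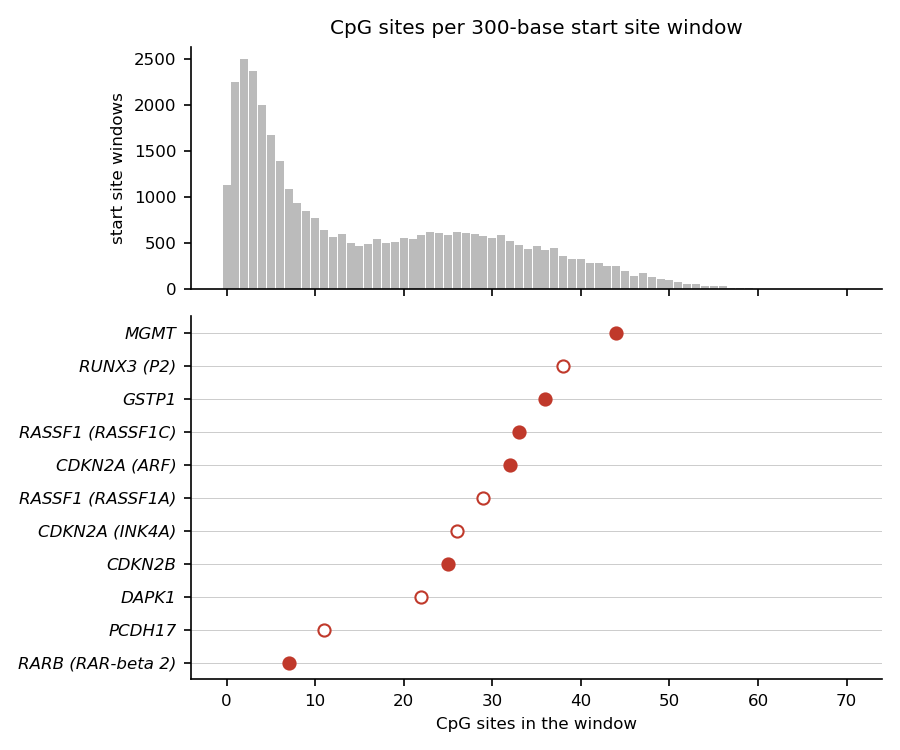
CpG sites in the 300-base window of each start. The upper panel is a histogram of 34882 start sites of protein-coding transcripts. In the lower panel each point is 1 of 11 starts of the 9 genes (the other 7 of 18 with a window are not drawn). Points are filled where the coding transcript that set the window had at least 40 counts over the 4 libraries and open below that. Of the starts drawn, MGMT, at 44 sites, lies farthest right and RAR-beta 2, at 7, farthest left. Filled and open points both occur above 25 sites.

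Sequences of 120 bases just before the outermost annotated 5′ end are given for 7 starts, because starts that held most of a gene's counts can then be set beside starts of the same or other genes that held few. They were read from GRCh37 with 5′ ends of GENCODE 44, are written 5′ to 3′ on the strand of the gene, and have each CpG site in capitals. For CDKN2A they are chr9:21995301-21995420 (ARF) and chr9:21974866-21974985 (INK4A), and for CDKN2B chr9:22009305-22009424, all on the minus strand. MGMT is read from chr10:131265334-131265453 on the plus strand. The RASSF1 stretches are chr3:50374896-50375015 (RASSF1C) and chr3:50378412-50378531 (RASSF1A), and that of RUNX3 is chr1:25256768-25256887, all on the minus strand. They hold 9 (INK4A and RASSF1C) to 22 (RUNX3) CpG sites. The ARF group spans 9:21994391-21995300, and its stretch precedes the outermost 5′ end, that of ENST00000498628, which held 1.85% of the gene's counts. The ARF transcripts ENST00000530628 and ENST00000579755 start farther downstream, at 21994410 and 21994391. The ARF stretch therefore lies outside the ARF window of 32 sites (9:21994361-21994660). The annotation with which the files were counted can place some 5′ ends elsewhere.
CDKN2A, ARF start: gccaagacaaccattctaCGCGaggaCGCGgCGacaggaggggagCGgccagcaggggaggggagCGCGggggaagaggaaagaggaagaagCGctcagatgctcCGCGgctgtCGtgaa
CDKN2A, INK4A start: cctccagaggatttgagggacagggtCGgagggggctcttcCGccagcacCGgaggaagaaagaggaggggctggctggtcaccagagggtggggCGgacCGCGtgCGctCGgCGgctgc
CDKN2B, main start: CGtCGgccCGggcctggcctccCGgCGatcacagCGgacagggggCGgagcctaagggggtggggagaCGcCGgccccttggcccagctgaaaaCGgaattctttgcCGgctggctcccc
MGMT, main start: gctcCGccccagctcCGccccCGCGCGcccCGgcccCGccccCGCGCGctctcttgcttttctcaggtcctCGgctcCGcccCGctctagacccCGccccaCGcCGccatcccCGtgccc
RASSF1, RASSF1C start: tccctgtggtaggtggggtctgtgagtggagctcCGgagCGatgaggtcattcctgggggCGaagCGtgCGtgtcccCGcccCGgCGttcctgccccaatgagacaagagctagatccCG
RASSF1, RASSF1A start: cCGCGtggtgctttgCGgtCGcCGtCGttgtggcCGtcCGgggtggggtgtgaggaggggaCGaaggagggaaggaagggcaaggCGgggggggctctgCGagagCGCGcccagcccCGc
RUNX3, P2 start: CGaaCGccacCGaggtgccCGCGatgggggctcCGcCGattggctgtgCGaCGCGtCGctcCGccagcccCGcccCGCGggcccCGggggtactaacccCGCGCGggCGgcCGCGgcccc

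Totals were 17442143 to 20295266 estimated fragments per library. TET1 had 111 and 83 counts in control and 2939 and 3310 in TET1-CD libraries, a log2 fold change of 5.02 ± 0.08 (SE). Reads of the introduced domain and of the cells' own TET1 cannot be told apart. Of 11 epithelial or urothelial markers, 6 had over 10 counts in every library, the keratins KRT7, KRT8 and KRT18 among them, whereas the uroplakins UPK1A, UPK1B, UPK2 and UPK3A, which mark differentiated urothelium, had at most 6. The summed level of the 11 was 2331 to 2349 CPM (counts scaled to a common library size) in control and 2618 to 2655 in TET1-CD libraries, and that of 4 mesenchymal markers was 7205 to 7240 and 5721 to 5928 CPM. The mesenchymal markers had log2 fold changes of −0.39 (VIM), −0.26 (FN1), −0.04 (CDH2) and 0.09 (ZEB1), so the sum follows VIM and FN1. Of the 6 epithelial ones, KRT7, KRT18 and KRT8, the most abundant, had 0.34, 0.18 and −0.08. KRT19, EPCAM and GATA3, at lower levels, had 1.01, 0.54 and 1.25. The part of these shifts in the results below was not tested. Leukocyte, endothelial, fibroblast and erythroid markers summed to at most 1.53 CPM each.

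Per transcript length, the 9 genes spanned a wide range in these cells. FPKM, the deposited level scaled to length and library size, was 351 to 380 for GSTP1, 59.4 to 73.5 for CDKN2A, 19.7 to 24.7 for RASSF1, 6.20 to 11.4 for MGMT, 2.89 to 4.05 for CDKN2B and 0.62 to 0.88 for RARB over the 4 libraries. None of these ranges overlapped its neighbour. PCDH17, DAPK1 and RUNX3 had an FPKM of at most 0.08 in any library, and their ranges overlapped each other. In a bulk sample, fewer cells that express a gene and less RNA per cell cannot be told apart.

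In TET1-CD cells MGMT and RASSF1 were higher and CDKN2B was lower than in control cells, all by less than 2-fold. The test was edgeR's quasi-likelihood test on counts summed per gene, with Benjamini-Hochberg adjustment over 14573 genes, and called means an adjusted p under 0.05. It called 3 of the 6 genes that passed the filter on low counts, beside 19.7% of all genes tested. MGMT and RASSF1 were among the genes higher in TET1-CD cells (10.0% of all tested) and CDKN2B among the lower ones (9.61%). None of the 6 reached 2-fold, whereas 3.77% of all genes tested were both called and at least 2-fold different. The median log2 fold change of the 6 was 0.08, and that of all genes tested 0.001. With so few genes, nothing is read from the share. The other 3, DAPK1, RUNX3 and PCDH17, had too few counts for a test.

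**Figure D2:**
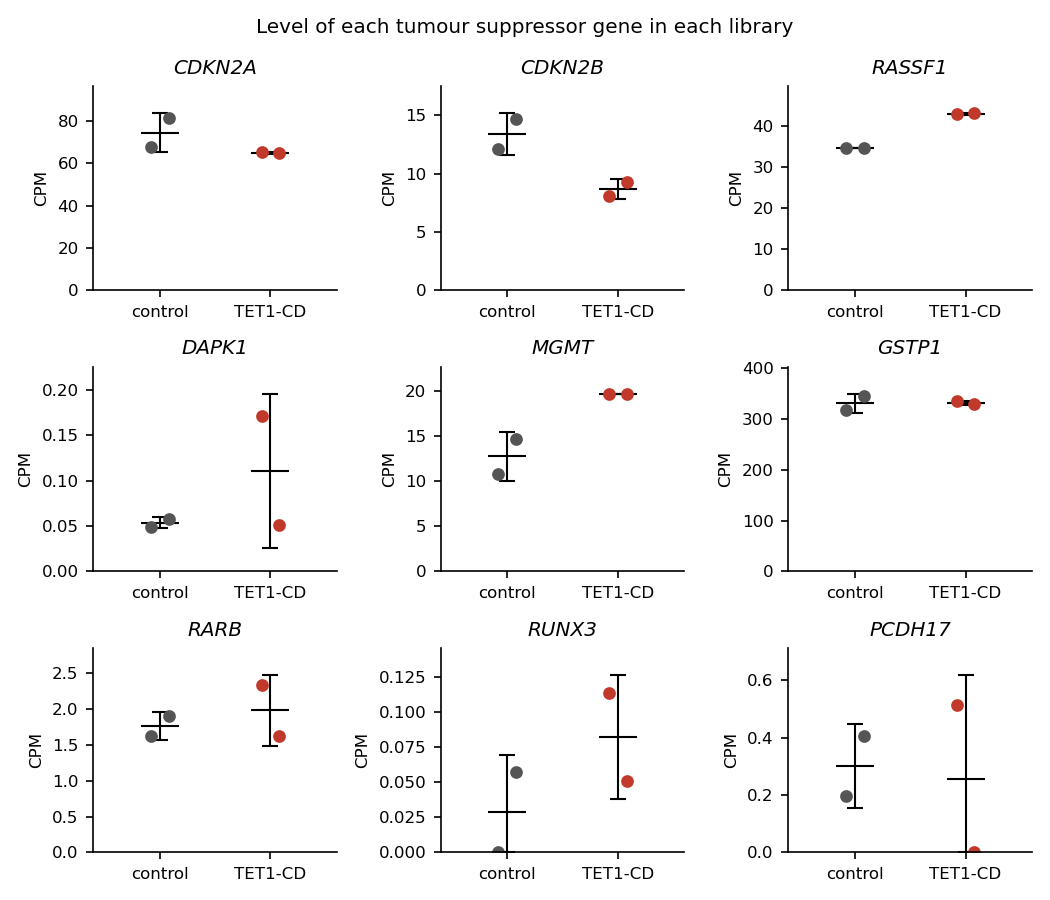
CPM of each of the 9 genes in each library. Points are libraries (grey control, red TET1-CD), the horizontal line is the mean of 2 libraries and the bars are ± SD, ending at 0 where they would go below it. Axes start at 0 and differ between panels. The groups do not overlap for MGMT, RASSF1, CDKN2B and CDKN2A, the last of which was not called. The share of all genes without overlap was not computed, so nothing is read from this separation of 2 and 2 libraries. DAPK1, RUNX3 and PCDH17 lie below 0.6 CPM.

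**Figure D3:**
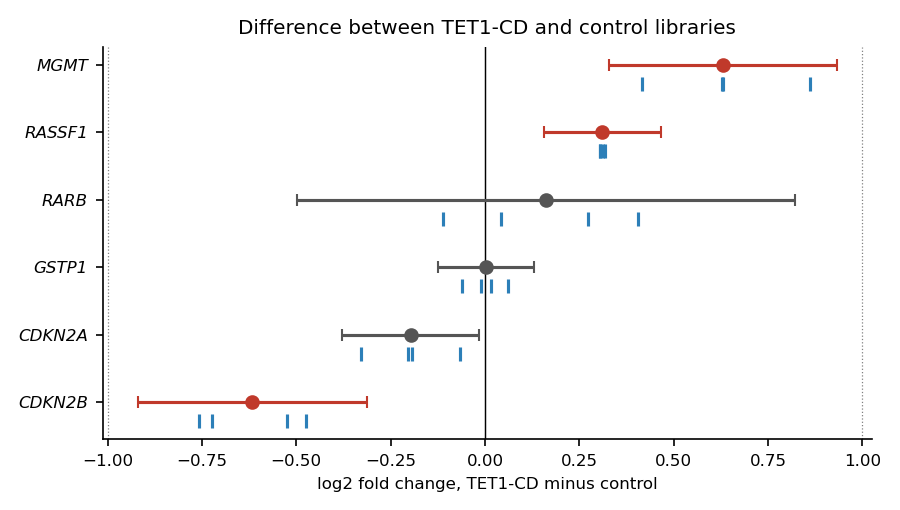
Log2 fold change of the 6 tested genes, TET1-CD minus control, with 95% confidence intervals from edgeR (red where the adjusted p was under 0.05). Blue ticks are the values with each library left out in turn, and dotted lines mark 2-fold. MGMT and RASSF1 lie above 0, CDKN2B lies below it, and no point reaches a dotted line.

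CDKN2A (ENSG00000147889, 9:21967751-21995300, minus strand) encodes 2 unrelated proteins from separate first exons: p16INK4a, which inhibits CDK4 and CDK6, and ARF, which binds MDM2 and so protects p53. Its level was 67.8 and 81.1 CPM in control and 65.1 and 64.6 CPM in TET1-CD libraries. Both TET1-CD libraries lay below both controls, but the controls differed from each other by more than the groups' nearest libraries did. The log2 fold change was −0.20 ± 0.08 (SE; 95% CI −0.38 to −0.02) with an adjusted p of 0.122 by edgeR's quasi-likelihood test, so that the gene was not called. Without control replicate 1 the change was −0.33 and was called (edgeR adjusted p = 0.000761), and without control replicate 2 it was −0.07 (edgeR adjusted p = 0.427).

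Almost all CDKN2A counts were assigned to the ARF start. Transcripts were grouped by start, with each 5′ end joined to the next where these lay within 500 bases. A group can therefore be wider than that, and the ARF group spans 909 bases. The 6 transcripts of the ARF start (9:21994391-21995300) held 1369, 1392, 1136 and 1257 counts in control 1, control 2, TET1-CD 1 and TET1-CD 2, which is 99.2% to 99.7% of the gene. The 4 transcripts of the INK4A start held 0.0, 1.2, 3.2 and 2.4 counts in the same order, close to the floor of 3 counts per library in all 4. ENST00000304494, the coding transcript of p16INK4a, was at 0 in every library. One transcript, ENST00000361570, carried 89.1% of the gene's counts, at 1228, 1250, 1010 and 1130. It is not in GENCODE 44, and its length in the files puts its 5′ end between 21994490 and 21995300, in the ARF group. The forms share their later exons, so the counts were divided by the authors' estimate, and only the first exons (180 bases in ENST00000304494, 254 in the ARF transcript ENST00000579755) tell them apart. A change of INK4A was therefore not detectable at this depth.

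CDKN2B (ENSG00000147883, 9:22002902-22009362, minus strand), the neighbouring gene, encodes p15INK4b, another inhibitor of CDK4 and CDK6. It had 12.1 and 14.7 CPM in control and 8.09 and 9.28 CPM in TET1-CD libraries. The level fell to 0.652 of control (95% CI 0.528 to 0.805), a log2 fold change of −0.62 ± 0.14 (SE), with an adjusted p of 0.0116 by edgeR's quasi-likelihood test. The call was lost without TET1-CD replicate 1 (edgeR adjusted p = 0.0935) and on log2(FPKM + 0.1), where the difference was −0.35 (limma adjusted p = 0.21). The main start held 245, 246, 125 and 167 counts, while a retained-intron transcript, ENST00000579591, held 0.0, 8.5, 16.9 and 14.6. That form is 1 exon of 1069 bases, nearly all of which lies in the last exon of the main transcript, ENST00000276925. Its counts therefore do not show that a separate start was in use. In FPKM, which weights the short retained-intron form more, the main start was at 3.43, 3.60, 2.03 and 2.19 and the retained-intron form at 0.00, 0.45, 0.90 and 0.70.

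CDKN2B-AS1, a long noncoding RNA on the plus strand (9:21994777-22121096), overlaps both CDKN2A and CDKN2B. It had 39, 22, 25 and 32 counts, and its log2 fold change was −0.08 (95% CI −0.79 to 0.64, edgeR adjusted p = 0.901). The protocol in the labels does not mention strand marking, and where strand was not used, reads of overlapping exons on opposite strands cannot be told apart. Of the genes in the files that overlap any of the 9, it was the only one with 10 counts in a library.

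RASSF1 (ENSG00000068028, 3:50367219-50378411, minus strand) encodes RAS-association scaffold proteins that feed into the Hippo kinases, and RASSF1A is the form from the upstream start, whose CpG island is the one known for methylation in tumours. The level of the whole gene was 34.7 and 34.8 CPM in control and 43.0 and 43.3 CPM in TET1-CD libraries. The SD was 0.035 CPM in control and 0.235 CPM in TET1-CD libraries (n = 2 each). The gene rose 1.24-fold (95% CI 1.11 to 1.38), a log2 fold change of 0.31 ± 0.07 (SE), with an adjusted p of 0.0127 by edgeR's quasi-likelihood test. The size stayed between 0.30 and 0.32 whichever library was left out, but the call was lost without TET1-CD replicate 1 (edgeR adjusted p = 0.104), without TET1-CD replicate 2 (edgeR adjusted p = 0.0818) and with DESeq2 (adjusted p = 0.0561).

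Most RASSF1 counts were assigned to RASSF1C, the form with the downstream start. Its transcript ENST00000327761 (5′ end at 3:50374895) held 673, 580, 726 and 818 counts, or 95.7% to 96.3% of the gene. The RASSF1A start (3:50378261-50378411) held 30.1, 22.3, 21.1 and 31.2 counts, and the groups overlapped. Its log2 fold change was 0.02 (95% CI −0.99 to 1.03, edgeR adjusted p = 0.991). The coding transcripts of RASSF1A, ENST00000357043 and ENST00000359365, were at 0 in every library. Most counts of that start were assigned to a retained-intron transcript, ENST00000478619, at 30.1, 18.7, 15.4 and 31.2. Its exon of 1635 bases covers all 292 bases of the first exon of RASSF1C, so those counts do not show that the upstream start was in use.

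**Figure D4:**
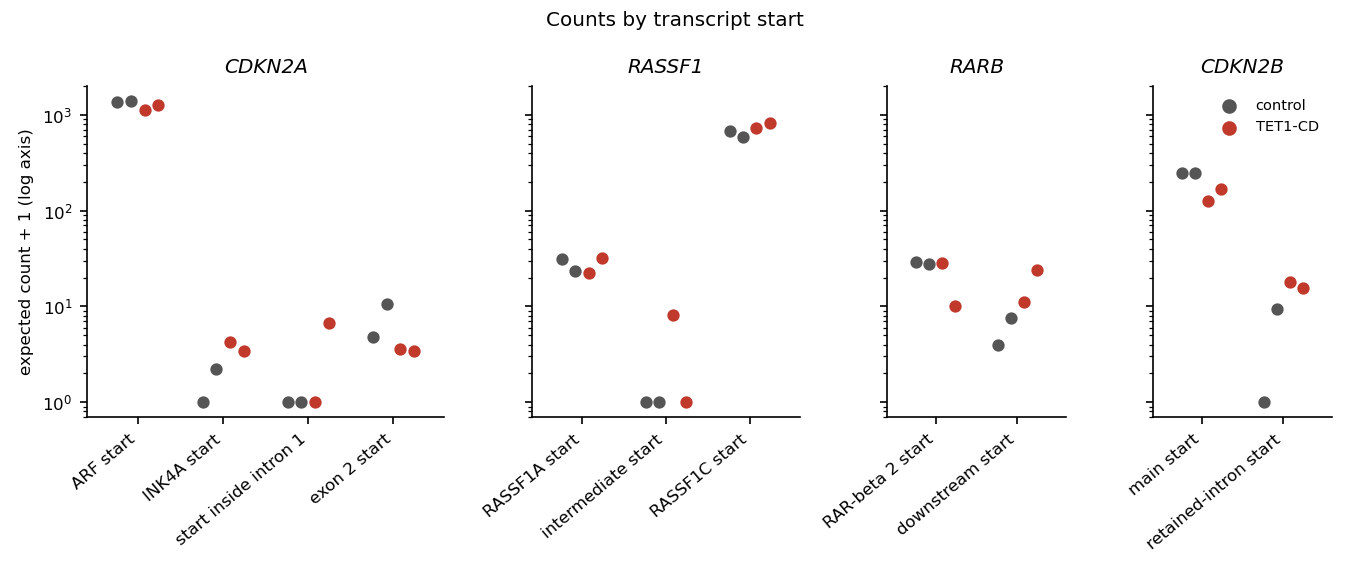
Expected counts plus 1 (log axis) by transcript start for CDKN2A, RASSF1, RARB and CDKN2B. Each start has 4 points in the order control 1, control 2 (grey), TET1-CD 1, TET1-CD 2 (red). Counts at the retained-intron start of CDKN2B do not show that this start was in use. The ARF start holds at least 1136 counts in every library while the INK4A start holds at most 3.2, and the RASSF1C start holds at least 580 while the RASSF1A start holds at most 31.2.

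MGMT (ENSG00000170430, 10:131265448-131566271, plus strand) encodes the transferase that removes alkyl groups from guanine in DNA. It had 10.8 and 14.7 CPM in control and 19.7 and 19.6 CPM in TET1-CD libraries. The gene rose 1.55-fold (95% CI 1.26 to 1.91), a log2 fold change of 0.63 ± 0.14 (SE), with an adjusted p of 0.0104 by edgeR's quasi-likelihood test. It was the only one of the 3 called genes that was called under each of 13 alternatives, with values of 0.42 to 0.86 when single libraries were left out. The controls were the less even pair, at 219 and 254 counts in libraries of which the first was the deeper. All MGMT counts lay in the start group at 10:131265454-131265526, the window with 44 CpG sites, and ENST00000306010 held 99.1% of them.

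GSTP1 (ENSG00000084207, 11:67351066-67354131, plus strand), a glutathione transferase that detoxifies electrophiles, was the most abundant of the 9. It had 317 and 344 CPM in control and 334 and 328 CPM in TET1-CD libraries, and the TET1-CD values lay between the controls. The log2 fold change was 0.003 ± 0.06 (SE; 95% CI −0.12 to 0.13, edgeR adjusted p = 0.981), so that the interval held no change beyond 0.918-fold or 1.09-fold. The sign turned with single libraries. ENST00000398606 held 79.5% of the counts, and ENST00000464930, which is not in GENCODE 44, held 1324, 1326, 876 and 1217. Neither transcript was called.

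RARB (ENSG00000077092, 3:25215823-25639423, plus strand), a retinoic acid receptor, was expressed at a low level. It had 33 counts in each control and 41 and 32 in TET1-CD libraries, or 1.63, 1.91, 2.34 and 1.63 CPM, and the groups overlapped. The log2 fold change was 0.16 ± 0.30 (SE; 95% CI −0.50 to 0.82, edgeR adjusted p = 0.748), and it turned to −0.11 without TET1-CD replicate 1. The RAR-beta 2 start held 28.0, 26.4, 27.3 and 9.2 counts, and a downstream start (ENST00000458646) held 3.0, 6.6, 10.2 and 22.8. TET1-CD replicate 2 thus had 28.9% of its RARB counts at the RAR-beta 2 start, whereas the other libraries had 66.5% to 84.7%. Neither start was called (edgeR adjusted p = 0.756 and 0.381).

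DAPK1, RUNX3 and PCDH17 were barely detected. DAPK1 (9:90112143-90323548), a calmodulin-dependent death kinase, had 1 count in each control and 3 and 1 in TET1-CD libraries. RUNX3 (1:25226002-25291612), a runt-domain transcription factor, had 0, 1, 2 and 1 counts, nearly all at the P2 start with its 38 CpG sites. PCDH17 (13:58205944-58303445), a protocadherin, had 4 and 7 counts in control and 9 and 0 in TET1-CD libraries. The groups overlapped for each. A floor of 3 counts corresponds to 0.148 to 0.173 CPM in these libraries, and no change of DAPK1 or RUNX3 was detectable at this depth.

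Tested start by start, none of the 9 start groups that passed the filter was called by edgeR, which called 0.584% of 24823 groups. An unadjusted edgeR p under 0.05 was found for 3 of the 9, beside 4417 of all 24823 groups. The 3 were the RASSF1C start (log2 fold change 0.32, adjusted p = 0.106 by edgeR), the main start of CDKN2B (−0.75, adjusted p = 0.142 by edgeR) and that of MGMT (0.63, adjusted p = 0.187 by edgeR). DESeq2 called the same 3, beside 9.52% of all groups. Of 78 transcripts of the 9 genes, 33 were at 0 in every library and 15 passed the filter. edgeR called none of the 15, where it called 0.00231% of all transcripts. An unadjusted edgeR p under 0.05 was found for 3 of the 15, beside 4840 of all 43213 transcripts tested. DESeq2 called only ENST00000327761, the RASSF1C transcript (0.32, DESeq2 adjusted p = 0.024), beside 6.39% of all transcripts.

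Over the 4 libraries, the protein-coding genes nearest to MGMT in log2 CPM centred on each gene's mean were PLA2G4A, CTHRC1 and USP51, at Euclidean distances of 0.057, 0.063 and 0.073. PLA2G4A had 7.41, 10.3, 14.2 and 14.1 CPM, the same order of a low first control and an even TET1-CD pair. Those nearest to CDKN2B were ABTB2, SAMD10 and SPEF2, at 0.039, 0.048 and 0.055. With 12528 genes and 4 libraries close matches are common, and 43 genes lay within 0.2 of MGMT and 130 within 0.2 of CDKN2B.

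Genes that work with the 9 are given from lists written for this purpose, none of which holds any of the 9, as counts of tested genes called by edgeR, beside 19.7% called and a median log2 fold change of 0.001 over all genes tested. In the p16 and ARF pathway 5 of 24 were called, 2 higher and 3 lower, with a median of −0.06, and with a replicate block 3 higher and 3 lower. MDM2, the p53 ligase that ARF inhibits, fell by 0.75 on the log2 scale, the cyclin CCND3 rose by 0.39 and the CDK inhibitor CDKN1B fell by 0.37. In the RASSF family and Hippo kinases 4 of 17 were lower and none was higher, with a median of −0.07. These included MOAP1 (−0.47), a partner of RASSF1A in apoptosis, the Hippo scaffold SAV1 (−0.33) and RASSF2 (−0.54), whereas RASSF1 itself rose. Of death-associated kinases and autophagy partners 2 of 11 were called, both higher, with a median of 0.07. DAPK3, a kinase of the same family as DAPK1, rose by 0.47 on the log2 scale.

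No gene of DNA alkylation repair and mismatch repair was called by edgeR or by DESeq2 among 13 tested, and the median was −0.005. An unadjusted edgeR p under 0.05 was found for 1 of the 13, beside 4844 of all 14573 genes tested. MLH3, XRCC1 and ALKBH2 had the smallest p-values, with log2 fold changes of −0.20, −0.20 and 0.25. Among glutathione transferases and glutathione metabolism 4 of 19 were higher and 1 was lower, with a median of 0.006, and DESeq2 called 2 higher and 0 lower. GCLM, the regulatory subunit of the rate-limiting enzyme of glutathione synthesis, rose by 0.31 and the transferase GSTA4 by 1.36. GSTM1 had 1 and 4 counts in control and 24 and 26 in TET1-CD libraries, and its reads may be shared with near-identical GSTM genes.

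Of the retinoic acid list 4 of 18 were higher and 3 lower, with a median of 0.02. The balance turned with the method, at 3 higher and 1 lower with DESeq2 and 4 higher and 6 lower with a replicate block. RBP4, which carries retinol, rose by 2.03 on the log2 scale, and STRA6, the receptor that takes retinol from RBP4 into cells, had 9 and 3 counts in control and 70 and 102 in TET1-CD libraries. The transglutaminase TGM2, which retinoic acid induces, rose by 0.65. RUNX family and partners had 1 higher and 3 lower of 12, with a median of −0.14, and with library size as the only scaling 2 higher and 2 lower, with DESeq2 1 higher and 1 lower. The corepressor TLE3 rose by 0.53, and the TGF-beta receptors TGFBR2 and TGFBR1 fell by 0.26 and 0.21. The list of non-clustered protocadherins also holds CYFIP2, NCKAP1, ABI1 and WASF1, which are not protocadherins. The protocadherins tested were PCDH1, PCDH7, PCDH12 and PCDH18. Of the 8 tested genes in the list 1 was called, PCDH1, which fell by 0.76. The median of −0.22 is that of the list, not of the protocadherins. PCDH12 and CYFIP2, which had the next smallest p-values there, had −1.35 and −0.32 and were not called.

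Among other genes known for promoter methylation in carcinoma 10 of 34 were higher and 6 lower, with a median of −0.06. BNIP3, a mitochondrial death protein, fell by 0.62 on the log2 scale, while the transcriptional repressor HIC1 rose by 1.34 and the metalloproteinase inhibitor TIMP3 by 1.69. Of the 34, 4 reached 2-fold, all higher: HIC1, TIMP3 and, singled out after their values were seen, HSPA2 (33 and 50 counts in control, 130 and 149 in TET1-CD libraries) and UCHL1 (0 and 2 counts in control, 28 and 30 in TET1-CD libraries). All 4 were called. Over all genes tested, 3.77% were both called and at least 2-fold different, 397 of them higher and 152 lower, so that higher ones were the more common there too. In the DNA methylation machinery 2 of 7 were higher and 1 lower, with a median of 0.009, and with a replicate block 2 higher and 2 lower. The maintenance methyltransferase DNMT1 rose by 0.27 and its recruiting partner UHRF1 by 0.23, and TET2 fell by 0.36.

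**Figure D5:**
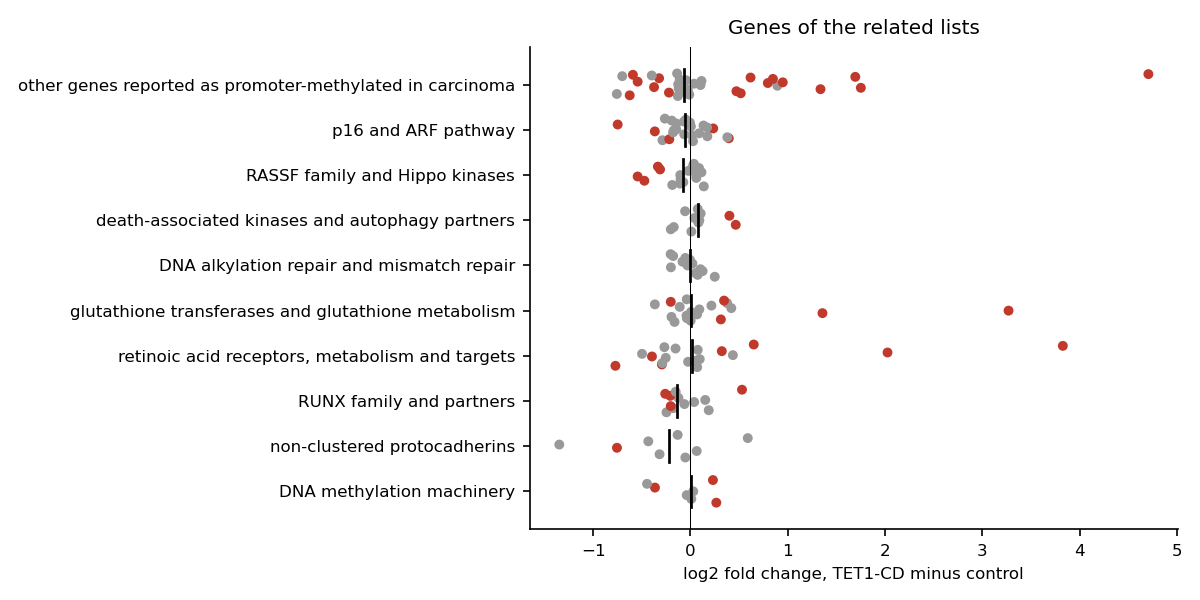
Log2 fold change, TET1-CD minus control, of the tested genes of 10 related lists. Each point is a gene, red where edgeR's adjusted p was under 0.05, and the black bar is the list's median. The medians lie between −0.22 and 0.07, and the points beyond 1 that were called are in 3 lists. The list of non-clustered protocadherins also holds CYFIP2, NCKAP1, ABI1 and WASF1.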

How the data were processed

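RNAseq of T24 cells was analysed in 2 control and 2 TET1-CD libraries. The files the authors deposited give every transcript an expected count, an estimated number of fragments that need not be whole, and an FPKM value. The submitters' processing notes name cutadapt 1.9.1, HISAT2 2.0.1, HTSeq 0.6.1, DESeq2 and hg19, and the step that split counts among transcripts is not given in the sources used here. Counts were summed per gene or per start group and rounded. Groups were compared with edgeR 4.0.16 (quasi-likelihood test, TMM normalization, filterByExpr) in R 4.3.3. p-values were adjusted by Benjamini-Hochberg over all features, and SEs were derived from the log2 fold change and its F statistic. Calls had an adjusted p under 0.05. Transcript starts were taken from GENCODE 44 on GRCh37, which held 69 of the 78 transcripts, and otherwise from the length in the files. The lists are those named in the report. Intervals and floors cover counting error or library spread only.

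The genes and lists were chosen with earlier results of these data known. The text names TET1, the 9 genes, transcripts with at least 10% of a gene's counts, overlapping genes with at least 10 counts in a library, at most 3 genes per list, those of lowest p, and the 3 nearest patterns of 2 genes. The value of 1 gene that the rule would name is not reported here. Other transcripts, markers and genes of the protocadherin list that are named were picked for their annotation. Alternatives were RLE normalization, library size only, DESeq2 1.42.0, limma-voom (limma 3.58.1), other filters, log2 FPKM with a pseudocount of 0.1 or 1, a replicate block, starts within 100 bases and the omission of each library. Scripts were tested on simulated data. The libraries of each group differed beyond sampling noise, with a chi-square per gene of 6.45 for control and 2.76 for TET1-CD.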

Additional observations from a re-analysis of the deposited data

How the results depend on the processing

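MGMT and TET1 were called under all 13 alternatives. CDKN2B was not called on log2(FPKM + 0.1) (−0.35), on log2(FPKM + 1) (−0.27) or without TET1-CD replicate 1, and RASSF1 was not called with DESeq2 (0.31) or without either TET1-CD library. CDKN2A was called with no filter on low counts (−0.20, edgeR adjusted p = 0.0361) and without control replicate 1. GSTP1 turned to −0.0005 with no filter and to −0.0042 on both FPKM scales, and also without control replicate 1 (−0.060) or TET1-CD replicate 1 (−0.0097). RARB turned to −0.11 without TET1-CD replicate 1. The cause was not tested.

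With single libraries left out, the log2 fold change was 4.94 to 5.12 for TET1, 0.42 to 0.86 for MGMT, 0.30 to 0.32 for RASSF1, −0.76 to −0.48 for CDKN2B, −0.33 to −0.065 for CDKN2A, −0.060 to 0.061 for GSTP1 and −0.11 to 0.40 for RARB. Of the 9 genes, 1 to 4 were called, 1 of them without TET1-CD replicate 1, and the count over all genes was 1180 to 3836, the lowest without TET1-CD replicate 1 and 1285 without TET1-CD replicate 2. A lone library is there assumed to vary like the other group. No start group or transcript was called in these fits (0 to 0). DESeq2 called 1739 genes, 3 start groups and 1 transcript, and the FPKM scales called 1595 (plus 0.1) and 1564 (plus 1) genes, against 2865 by edgeR.

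Same-numbered libraries did not deviate together (correlation of deviations 0.007), so the numbers were not taken to pair the samples. With a replicate block 3235 genes were called over the whole table. The block left the same 3 of the 9 genes called, with log2 fold changes of 0.63 for MGMT, 0.31 for RASSF1 and −0.62 for CDKN2B. Depth limits DAPK1, RUNX3, PCDH17, INK4A and the coding RASSF1A transcripts, which lie near 0 counts.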
